A study of Mus musculus with 4 samples.

Results

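The chemokine family was examined in MLL-AF9 leukaemic cells. Members were all genes whose symbol starts with Ccl, Cxcl, Ccr or Cxcr and a digit, plus Xcl1, Xcr1, Cx3cl1, Cx3cr1 and Ccrl2; Ccr7, Ccl22, Ccl5 and Ccl17 were left out. The rule gave 56 of the 22072 gene symbols in the deposited tables, and 21 of the 56 reached 1 FPKM (fragments per kilobase of transcript per M mapped fragments) in at least 1 library. The cells were bone marrow leukaemic cells of C57BL/6 mice. All 4 groups carried the MLL-AF9 allele, labelled MLL-AF9-/+, a fusion oncogene of acute myeloid leukaemia. Control cells carried this allele alone, and Meis1f/f cells were labelled Meis1f/fCreER+/- MLL-AF9-/+, with floxed Meis1 and a recombinase activated by tamoxifen. Cells of either genotype were given vehicle, or 1000 nM 4-hydroxytamoxifen (4-OHT), which activates CreER, for 24 h. The medium held 4 cytokines (SCF, GM-CSF, IL-6 and IL-3), each at 10 ng/ml. There was 1 library per group, and values listed without a group run from control vehicle through control 4-OHT and Meis1f/f vehicle to Meis1f/f 4-OHT. With 1 library each, no difference below has a replicate check or a p-value. Control cells carry no CreER by their label, so activation of the recombinase, loss of Meis1 and any difference between the 2 cultures cannot be told apart.

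Chemokines are small secreted proteins that direct the migration of leukocytes by binding G protein-coupled receptors on their surface. They are named CC, CXC, XC or CX3C after the spacing of conserved cysteines, and many lie in gene clusters that arose by duplication. In bone marrow the best known axis is CXCL12, made by stromal cells, with its receptor CXCR4 on blood cell progenitors and leukaemic cells; CCR2 and its ligands bring monocytes out of the marrow, and CXCR2 does the same for neutrophils.

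Estimated depth ran from 18.6 to 43.3 M mapped reads per library, and between 10051 and 10425 symbols reached 1 FPKM in each. Meis1, the targeted gene, was at 11.6 (vehicle) and 12.1 FPKM (4-OHT) in control cells and at 11.8 and 7.38 FPKM in Meis1f/f cells. Myeloid progenitor markers were present in all 4 libraries, with Mpo between 710 and 1280 FPKM and Elane between 1351 and 2044 FPKM, while Pax5, Cd3e and Cd4 were listed at 0 in each. Markers of mast cells and basophils summed to 240 to 260 FPKM over 10 genes in the control libraries and to 2064 to 2579 FPKM in the Meis1f/f libraries, and all 10 were higher there by at least 1 on the log2(FPKM + 1) scale in both genotype comparisons. Erythroid markers (6 of 6) summed to 31.9 to 98.3 FPKM in control and to 262 to 302 FPKM in Meis1f/f cells, and eosinophil markers (6 of 7 found) summed to 229 to 323 FPKM in control and to 640 to 722 FPKM in Meis1f/f cells. Neutrophil markers (7 of 8) summed to 5995 to 6456 and 8473 to 9885 FPKM. Most of the neutrophil sum was S100a8 (3551, 3254, 4836 and 4620 FPKM) and S100a9 (2611, 2433, 4751 and 3583 FPKM). Mmp9 and Retnlg were also higher in both genotype comparisons, Camp and Mmp8 (144, 149, 132 and 148 FPKM) were lower in both, and Ltf went both ways. Monocyte markers (9 of 10 symbols, Ccr2 among them and Emr1 listed also as Adgre1) summed to 1839 to 2199 and 1139 to 1331 FPKM. Most of the monocyte sum was Ly6c2 (1496, 1781, 810 and 963 FPKM), while Emr1 (19.7, 27.6, 31.6 and 47.3 FPKM) and Mrc1 (3.26, 6.03, 10.4 and 20.8 FPKM) of the same list were higher in both Meis1f/f libraries. Dendritic cell markers (7 of 7) summed to 231 to 338 FPKM in control and to 478 to 581 FPKM in Meis1f/f cells. Most of that sum was Cd74 (129, 169, 220 and 300 FPKM), H2-Aa (52.1, 91.1, 138 and 148 FPKM) and H2-Ab1 (47.7, 72.7, 102 and 112 FPKM). Itgax was at 2.57, 4.72, 17.4 and 19.75 FPKM, while Flt3, Zbtb46 and Siglech stayed at or under 0.552 FPKM. The Meis1f/f vehicle library was sequenced in lane 1 and the other 3 in lane 2, by the sheet names, and longer transcripts tended to be higher in it: over 10922 genes, which are not independent replicates, length and the genotype difference had a Spearman's rho of 0.25 under vehicle and 0.03 under 4-OHT.

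**Figure D1:**
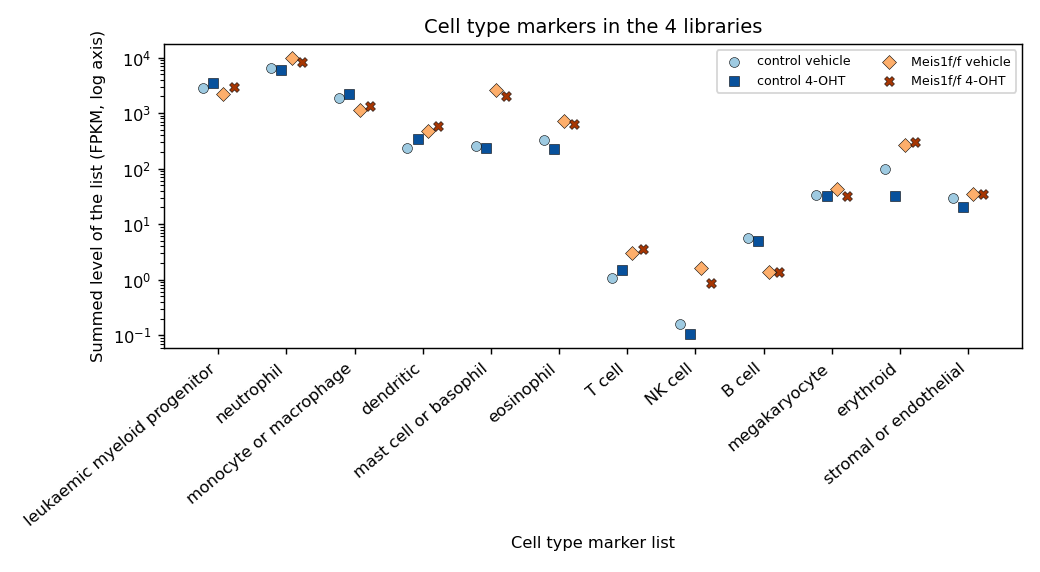
Summed FPKM (log axis) of 12 lists of cell type markers in the 4 libraries, 1 point per library. The mast cell or basophil list sits near 250 in the control libraries (240 to 260) and far higher in the Meis1f/f libraries (2064 to 2579).

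Of the 56 members, 15 were at or above 1 FPKM in all 4 libraries and 6 in only some of them (Cxcl16, Cxcl10 and Ccr4 in 3, Cx3cl1, Ccl12 and Ccl25 in 2). A further 23 were above 0 but under 1 FPKM, 10 were listed at 0 throughout, and 2 (Ccl21a and Ccl21b) had no transcript row marked OK. Just inside the threshold lay Ccl25, whose highest level was 1.34 FPKM, and Ccl12 at 1.38 FPKM; just outside lay the mucosal homing receptor gene Ccr10 at 0.846 FPKM and Ccr6 at 0.703 FPKM, whose 7 rows summed to 1.13 FPKM in Meis1f/f cells with 4-OHT. The 10 listed at 0 were Ccl11, Ccl19, Ccl20, Ccl21c, Ccl26, Ccl27b, Cxcl11, Cxcl13, Cxcl17 and Ccr8. A member that passed only through the libraries where it was high had to differ between libraries, so the counts below describe these 21 genes and not the whole family. Of the 21, 14 encode ligands and 7 encode receptors.

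**Figure D2:**
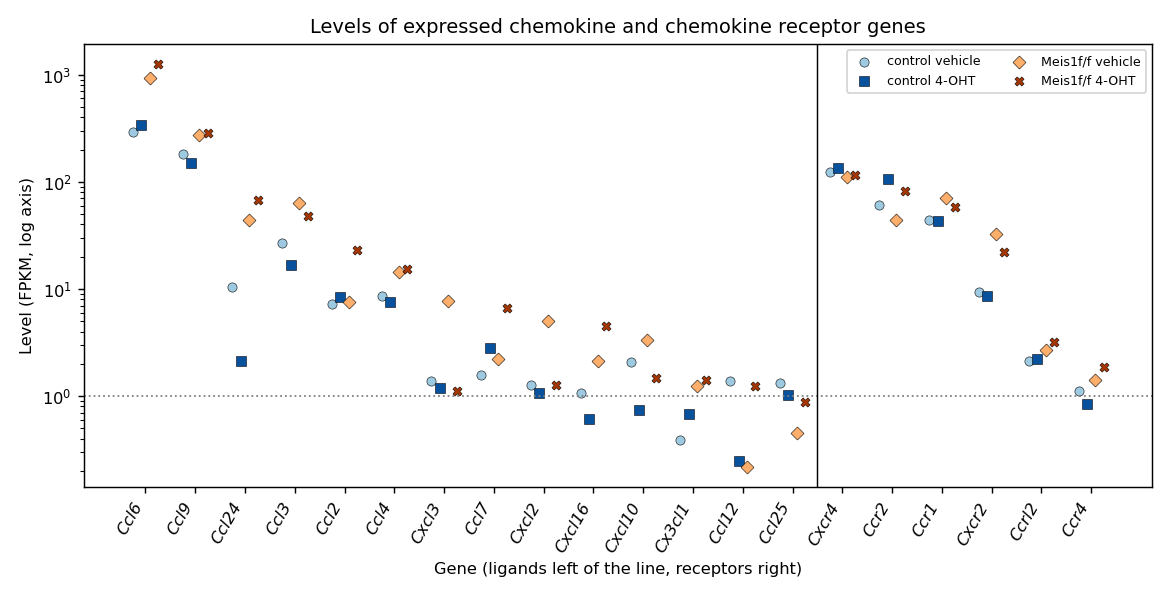
FPKM (log axis) of 20 members that reached 1 FPKM (dotted line) in at least 1 library, 1 point per library, with ligands left and receptors right of the vertical line. Ccl6 reached 1254 FPKM, while Cxcr4 stayed between 111 and 134 FPKM in all 4 libraries.

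By a log2(FPKM + 1) difference of at least 1, Meis1f/f cells held more RNA of several chemokine ligands and of 1 receptor than control cells. This held under vehicle as well as under 4-OHT. Under vehicle, Ccl6, Ccl3, Ccl24, Cxcl2, Cxcl3 and Cxcr2 were higher in Meis1f/f cells, which makes 6 of 21 members higher by the size rule, a difference of at least 1 in log2(FPKM + 1), and 0 lower, against 5.84% and 2.11% of all 10922 genes. Under 4-OHT, Ccl6, Ccl3, Ccl24, Ccl2, Ccl7, Cxcl16 and Cxcr2 were higher, which makes 7 of 21 higher and 0 lower, against 3.72% and 1.61% of all genes. These comparisons share no library, but any difference between the control and Meis1f/f cultures would enter both. Ccl6, Ccl3, Ccl24 and Cxcr2 were higher in both, 4 of 21 members against 2.45% of all genes. The median difference over the 21 members was 0.58 under vehicle and 0.63 under 4-OHT, and over all genes it was -0.06 and 0.00. Over the 14 ligands the medians were 0.64 and 0.92, and over the 7 receptors 0.19 and 0.40. In bulk RNA, more cells of a type and more RNA per cell cannot be told apart. The summed markers of mast cells and basophils, erythroid cells, eosinophils, neutrophils and dendritic cells given above were also higher in both Meis1f/f libraries. So were the T cell, NK cell and stromal sums, at 35.2 FPKM or less, though these rested on few genes. Most of the stromal sum was Pecam1 (28.1, 19.2, 33.45 and 34.3 FPKM), and 0 stromal markers passed the size rule. In the T cell list Cd3g (0, 0.273, 2.11 and 2.41 FPKM) was higher, while Cd3e and Cd4 were at 0 and Lck (0.998, 1.06, 0.384 and 1.00 FPKM) was lower. The part of all these lists in the differences was not tested.

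Ccl6 was by far the most abundant member. It encodes a CC chemokine of myeloid cells and macrophages that acts through CCR1 in mice, and its transcript (chromosome 11, 83401388 to 83406589; positions as deposited, whose genome build could not be settled) was at 294 (vehicle) and 339 FPKM (4-OHT) in control cells and at 928 and 1254 FPKM in Meis1f/f cells. Both Meis1f/f libraries lay above both control libraries. In the order of levels over 21917 symbols it stood at rank 215 and 176 in control cells and at rank 53 and 22 in Meis1f/f cells. The ratio of Meis1f/f to control was 3.16 under vehicle (95% exact Clopper-Pearson counting interval 3.09 to 3.22) and 3.70 under 4-OHT (3.62 to 3.78). These intervals rest on reads estimated from coverage and cover counting error only. With 4-OHT the level was 1.15 times that with vehicle in control cells (1.12 to 1.18) and 1.35 times in Meis1f/f cells (1.33 to 1.37), short of the size rule in each. A gene model that overlaps Ccl6, E230016K23Rik, was at no more than 1.07 FPKM in any library.

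Ccl9, a neighbour of Ccl6 that also acts through CCR1, was at 183, 150, 275 and 282 FPKM. Again both Meis1f/f libraries were above both control libraries, but the log2 differences were 0.59 under vehicle and 0.91 under 4-OHT, short of 1. Ccl3, which encodes the inflammatory chemokine MIP-1 alpha, was at 27.1, 16.9, 63.5 and 47.6 FPKM. Its Meis1f/f to control ratio was 2.34 (2.14 to 2.57) under vehicle and 2.83 (2.46 to 3.25) under 4-OHT, and it was lower with 4-OHT in both genotypes, by ratios of 0.622 (0.540 to 0.716) and 0.750 (0.687 to 0.817), short of the size rule. Ccl4, which encodes MIP-1 beta, a chemoattractant of monocytes and T cells, was at 8.55, 7.52, 14.5 and 15.3 FPKM, with log2 differences between genotypes of 0.70 and 0.93, the latter 1.01 with a pseudocount of 0.1. These 4 genes lie within 92 kb on chromosome 11, in the order Ccl9, Ccl6, Ccl3 and Ccl4, and each of them was higher in both Meis1f/f libraries than in both control libraries. With 4-OHT they did not share a direction: in Meis1f/f cells the differences were 0.43 for Ccl6, 0.04 for Ccl9, 0.07 for Ccl4 and -0.41 for Ccl3, and that of Ccl9 turned to -0.10 under median ratio rescaling, to -0.06 under upper quartile rescaling and to -0.05 with the length trend removed.

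Ccl24 had the greatest genotype difference of the 21 members under 4-OHT. It encodes eotaxin-2, which attracts eosinophils through CCR3, and was at 10.4 (vehicle) and 2.11 FPKM (4-OHT) in control cells and at 44.3 and 68.1 FPKM in Meis1f/f cells. The control 4-OHT library was the lowest and both Meis1f/f libraries were the highest. The Meis1f/f to control ratio was 4.25 (3.81 to 4.74) under vehicle and 32.2 (24.8 to 42.0) under 4-OHT, where the control value rested on an estimated 60.5 reads. With 4-OHT the level was 4.94-fold lower (3.74 to 6.54) in control cells and 1.54-fold higher (1.44 to 1.63) in Meis1f/f cells. Its neighbour Ccl26 was listed at 0, and its receptor gene Ccr3 was at 0.0463, 0.193, 0.291 and 0.567 FPKM, under 1 FPKM in every library.

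**Figure D3:**
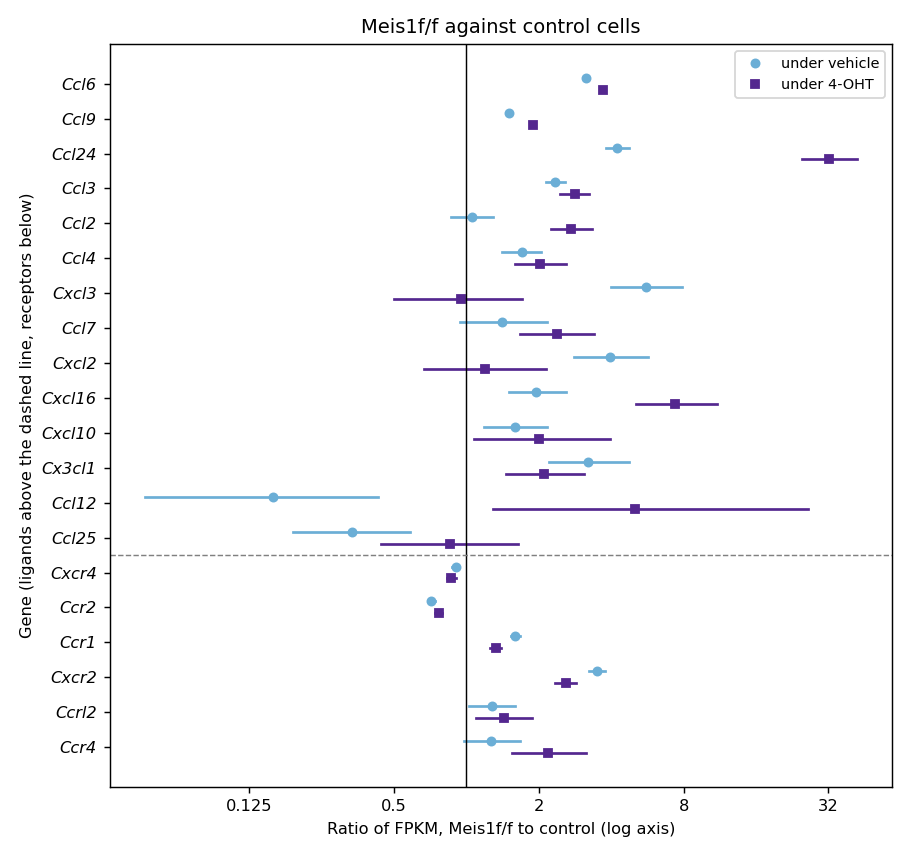
Ratio of FPKM in Meis1f/f to control cells (log axis) for 20 members, under vehicle (circles) and under 4-OHT (squares); lines are 95% exact counting intervals, which leave out variation between cultures. Ccl6 lies at 3.16 and 3.70, and Ccl24 at 4.25 and 32.2.

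**Figure D4:**
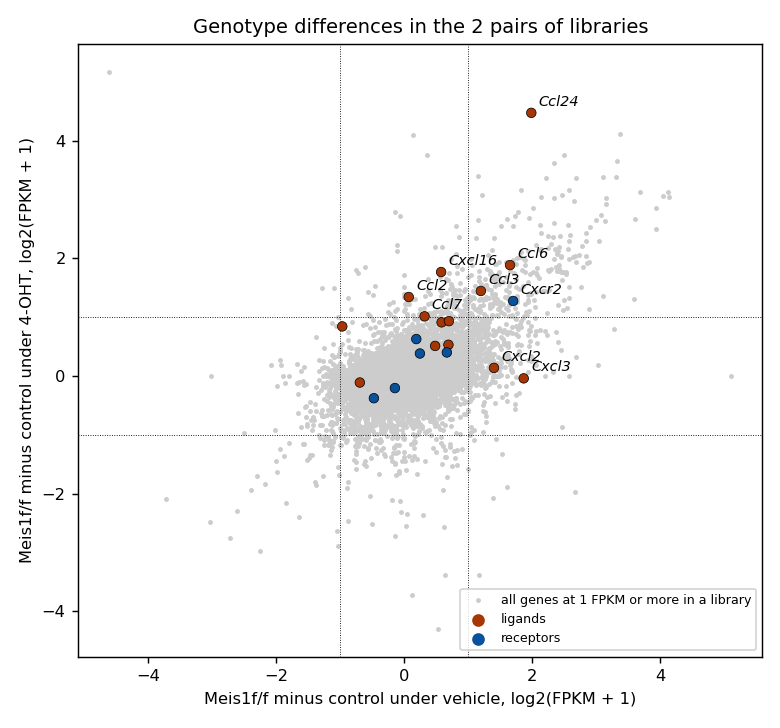
Genotype differences of log2(FPKM + 1) under vehicle (x axis) and under 4-OHT (y axis), with all 10922 genes in grey, ligands in brown and receptors in blue; dotted lines mark a difference of 1. Ccl24, Ccl6, Ccl3 and Cxcr2 are the 4 members past 1 on both axes, while Cxcl2 and Cxcl3 are past 1 under vehicle alone.

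Cxcl2 and Cxcl3 were high in the Meis1f/f vehicle library alone. They encode neutrophil-attracting CXC chemokines that bind CXCR2. Cxcl2 (chromosome 5, 91332925 to 91334964) was at 1.26 (vehicle) and 1.07 FPKM (4-OHT) in control cells and at 4.98 and 1.27 FPKM in Meis1f/f cells, and Cxcl3 (chromosome 5, 91215129 to 91217116) was at 1.37, 1.18, 7.65 and 1.12 FPKM. The other 3 libraries lay between 1.07 and 1.37 FPKM for both genes. The Meis1f/f to control ratio under vehicle was 3.95 (2.80 to 5.69) for Cxcl2 and 5.58 (3.98 to 7.89) for Cxcl3, and under 4-OHT it was 1.20 (0.666 to 2.14) and 0.951 (0.499 to 1.71). With 4-OHT in Meis1f/f cells Cxcl2 was 3.90-fold (2.57 to 6.03) and Cxcl3 6.82-fold (4.42 to 11.2) lower. Each of these differences rests on the Meis1f/f vehicle library, the one in lane 1, and the part of that lane was not tested. With a pseudocount of 5 the Cxcl2 differences dropped under 1, to 0.67 under vehicle and -0.67 with 4-OHT in Meis1f/f cells, and the Cxcl3 difference under vehicle was 0.99. Of the 45-base words in annotated Cxcl2 transcripts, 6.10% also occurred in Cxcl3, so a small part of their reads could have been split between them. Their neighbours Cxcl1, Cxcl5 and Cxcl15 stayed at or under 0.145 FPKM.

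The 250 bases before the start sites of Cxcl2 and Cxcl3 are shown because these genes moved together, and that of Cxcl10 as another CXC ligand with a match. Sequences are from RefSeq on GRCm38.p6 and run 5′ to 3′ along the gene; capitals mark matches to the NF-kB consensus. NF-kB is a transcription factor family activated by inflammatory signals. The windows are chr5:90903649-90903898 (plus strand) for Cxcl2, chr5:90785851-90786100 (plus strand) for Cxcl3 and chr5:92348890-92349139 (minus strand) for Cxcl10.
Cxcl2: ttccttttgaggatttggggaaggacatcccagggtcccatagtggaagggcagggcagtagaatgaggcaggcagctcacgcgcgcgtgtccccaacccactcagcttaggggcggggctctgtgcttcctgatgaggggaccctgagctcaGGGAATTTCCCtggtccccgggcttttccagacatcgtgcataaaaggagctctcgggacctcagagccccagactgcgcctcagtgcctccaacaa
Cxcl3: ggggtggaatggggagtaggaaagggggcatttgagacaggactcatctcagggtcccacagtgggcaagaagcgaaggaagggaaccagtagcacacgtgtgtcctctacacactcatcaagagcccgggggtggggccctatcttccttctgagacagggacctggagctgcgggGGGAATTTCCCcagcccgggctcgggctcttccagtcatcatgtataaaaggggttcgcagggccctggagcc
Cxcl10: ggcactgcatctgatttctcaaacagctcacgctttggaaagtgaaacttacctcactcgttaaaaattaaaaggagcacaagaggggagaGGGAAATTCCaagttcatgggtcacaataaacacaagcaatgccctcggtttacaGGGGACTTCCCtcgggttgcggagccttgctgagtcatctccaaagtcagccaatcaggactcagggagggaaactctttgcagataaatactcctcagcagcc
Cxcl2 and Cxcl3 hold the same 11 bases, GGGAATTTCCC, starting 97 and 73 bases before the start site, as 2 overlapping matches, 1 on each strand. Cxcl10 has 3 matches, starting 159, 104 and 103 bases before its start, of which the last 2 overlap. The promoter table held 15 of the 21 members, in 18 windows. A match, counted on both strands, was found in 6 of the 15: Cxcl2, Cxcl3, Cxcl10, Ccl9, Ccr1 and Ccrl2. Over 32851 promoter windows of the same length 7.25% held one. The shares over all windows are per window, while a member was counted if any of its windows matched. Ccrl2 had 3 windows and a match in the first alone. Ccl6, Ccl3 and Cxcr2, which were higher in both genotype comparisons, held none in these windows. The letters TGACAG, the core recognised by MEIS proteins, were found on either strand in Ccl9 and Ccl12, in 15.9% of all windows, and TATAAA on the gene strand in 6 of the 15, in 7.59% of all windows. The AP-1 consensus TGANTCA (N, any base) was found on either strand in Ccl9, Ccr4 and Cxcl10, in 6.75% of all windows. CCAAT was found on either strand in 4 of the 15, in 33.8% of all windows. A match describes these letters and is not a binding site. Ccl2, Ccl4, Ccl7, Ccl24 and Cxcl16 were among those not in the table.

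Cxcl10, an interferon-induced ligand of CXCR3, was at 2.08, 0.738, 3.31 and 1.48 FPKM. Both 4-OHT libraries were lower than their vehicle library, with 4-OHT to vehicle ratios of 0.355 (0.190 to 0.601) in control and 0.447 (0.287 to 0.663) in Meis1f/f cells. On the log2(FPKM + 1) scale these were -0.82 and -0.80, short of the size rule; with a pseudocount of 0.1 they were -1.38 and -1.11, and with the length trend removed the Meis1f/f value was -1.05. Cxcl16, a transmembrane chemokine that binds CXCR6, was at 1.08, 0.609, 2.10 and 4.48 FPKM, highest with 4-OHT in Meis1f/f cells and lowest with 4-OHT in control cells. Its Meis1f/f to control ratio was 1.95 (1.51 to 2.59) under vehicle and 7.36 (5.09 to 11.01) under 4-OHT, and with a pseudocount of 5 the log2 difference under 4-OHT was 0.76. Zmynd15, which overlaps Cxcl16, was at no more than 0.219 FPKM, and 17.3% of the 45-base words of Cxcl16 transcripts also occurred in 1 other gene. Cx3cl1, the membrane-bound fractalkine, was at 0.390, 0.674, 1.25 and 1.42 FPKM, above 1 FPKM in the Meis1f/f libraries alone, with log2 differences between genotypes of 0.69 and 0.53, the former 1.46 with a pseudocount of 0.1. Ccl25, a gut and thymus chemokine, was at 1.34, 1.03, 0.448 and 0.880 FPKM, from a row annotated as a non-coding transcript. Of the 45-base words in its annotated transcripts 2.13% also occurred in 1 other gene, so its value is uncertain. Greater shares were found for Cxcr2 (8.06%, with 472 other genes), Cxcl3 (4.56%, 1098), Cxcl10 (3.81%, 1), Ccl9 (2.60%, 735) and Ccr2 (2.20%, 618). Whether shared words altered the levels of these genes was not tested.

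With 4-OHT, 0 of 21 members were higher and 1 was lower in control cells, against 1.37% and 0.879% of all genes; the lower one was Ccl24. In Meis1f/f cells 2 were higher, Ccl2 and Ccl7, and 2 were lower, Cxcl2 and Cxcl3, against 1.63% and 2.28% of all genes. Of all genes past the size rule in Meis1f/f cells 41.7% were higher as deposited and 23.8% under median ratio rescaling, which shifted the median of all genes by -0.12 (log2); the 4 members kept their calls under it. In the difference of the 4-OHT effects (Meis1f/f minus control), Ccl24, Ccl12, Ccl2 and Cxcl16 were higher and Cxcl2 and Cxcl3 lower, 4 and 2 of 21 against 2.11% and 3.63% of all genes. With a pseudocount of 5 the differences for Ccl12, Cxcl16 and Cxcl2 were 0.54, 0.53 and -0.62, under the size rule. The medians over the members were -0.12 in control cells and 0.19 in Meis1f/f cells, and over all genes 0.05 and 0.11.

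Ccl2, which encodes the monocyte chemoattractant MCP-1, was at 7.15 (vehicle) and 8.46 FPKM (4-OHT) in control cells and at 7.57 and 23.0 FPKM in Meis1f/f cells. The Meis1f/f 4-OHT library was high and the other 3 lay close together. Its 4-OHT to vehicle ratio was 1.18 (0.938 to 1.48) in control and 3.04 (2.58 to 3.58) in Meis1f/f cells. Ccl7, which encodes MCP-3 and lies beside Ccl2, was at 1.58, 2.79, 2.23 and 6.66 FPKM, again highest in Meis1f/f cells with 4-OHT. Its ratios of 4-OHT to vehicle were 1.76 (1.14 to 2.82) and 2.99 (2.20 to 4.08), and its difference between genotypes under 4-OHT was 1.01, which was 0.98 with the length trend removed and 0.58 with a pseudocount of 5; the latter also took its 4-OHT difference in Meis1f/f cells from 1.25 to 0.69. Ccl12, which encodes MCP-5 in mice, was at 1.38, 0.245, 0.216 and 1.23 FPKM, from an estimated 21.1, 2.9, 5.0 and 12.3 reads. It was low in control 4-OHT and Meis1f/f vehicle cells, so with 4-OHT its ratio was 0.178 (0.0351 to 0.616) in control and 5.70 (1.83 to 20.2) in Meis1f/f cells; the intervals are wide because of the few reads. The log2 differences were -0.93 and 0.88, and with a pseudocount of 0.1 they were -2.10 and 2.08. The other members of this cluster of 144 kb on chromosome 11, Ccl11, Ccl8 and Ccl1, stayed at or under 0.282 FPKM.

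**Figure D5:**
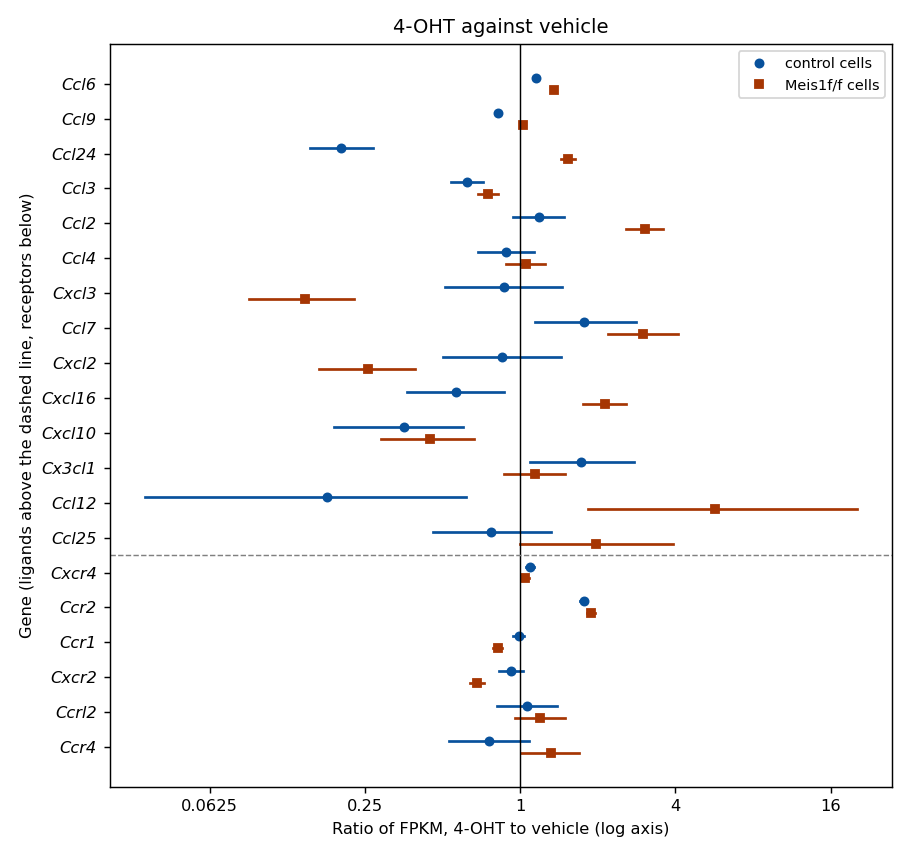
Ratio of FPKM under 4-OHT to vehicle (log axis) for 20 members, in control cells (circles) and Meis1f/f cells (squares); lines are 95% exact counting intervals. Ccr2 lies at 1.76 and 1.89 in the 2 genotypes, while Ccl24 lies at 0.202 and 1.54.

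Among the 7 receptor genes, Cxcr2 was the one past the size rule in any of the 5 comparisons. Cxcr2, the neutrophil receptor for Cxcl2 and Cxcl3 products, was at 9.26 (vehicle) and 8.54 FPKM (4-OHT) in control cells and at 32.4 and 22.1 FPKM in Meis1f/f cells. Both Meis1f/f libraries were above both control libraries, by 3.50-fold (3.25 to 3.78) under vehicle and 2.59-fold (2.34 to 2.86) under 4-OHT. The neutrophil markers Mmp9 (1.88, 3.60, 16.1 and 12.1 FPKM) and Retnlg (1.97, 2.82, 11.3 and 5.19 FPKM) were high in the same libraries, while Camp (76.2, 76.9, 51.0 and 44.6 FPKM) was not; of the 7 neutrophil markers 2 were higher in Meis1f/f cells by the size rule under vehicle and 1 under 4-OHT, and their part in the Cxcr2 difference was not tested. Cxcr1, beside Cxcr2, stayed at or under 0.200 FPKM.

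Cxcr4, the receptor for CXCL12, was the most abundant receptor gene in all 4 libraries, at 123, 134, 111 and 116 FPKM. Its ratios in the 4 pairwise comparisons lay between 0.867 and 1.09. Ccr2, the receptor for the Ccl2, Ccl7 and Ccl12 products, was at 60.8 (vehicle) and 107 FPKM (4-OHT) in control cells and at 43.5 and 82.2 FPKM in Meis1f/f cells. In both genotypes the 4-OHT library was higher, with ratios of 1.76 (1.70 to 1.82) and 1.89 (1.82 to 1.96), and differences of 0.81 and 0.90, short of the size rule. Ccr2 had Meis1f/f to control ratios below 1, at 0.717 (0.692 to 0.742) under vehicle and 0.768 (0.743 to 0.795) under 4-OHT. Other monocyte or macrophage markers went in both directions: Ly6c2 and Ly6c1 were lower in both Meis1f/f libraries, Emr1 and Mrc1 were higher, and Cd68 was at 75.9, 81.8, 72.1 and 88.2 FPKM.

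Ccr1, a receptor for the Ccl3, Ccl6 and Ccl9 products, was at 44.0, 43.4, 70.4 and 57.6 FPKM, higher in both Meis1f/f libraries with log2 differences of 0.67 and 0.40. Ccrl2, an atypical receptor that binds chemerin, was at 2.11, 2.23, 2.69 and 3.21 FPKM, and Ccr4, a receptor best known from T cells, at 1.11, 0.842, 1.41 and 1.85 FPKM. Neither reached a difference of 1 in any comparison, though Ccr4 was at 1.05 between genotypes under 4-OHT with a pseudocount of 0.1. Ccr1 and Ccr2 lie in a cluster of chemokine receptor genes on chromosome 9. In the same cluster Ccr9, Cxcr6, Xcr1, Ccr1l1 and Ccr3 stayed under 1 FPKM, at most 0.567.

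For Ccl6, Ccl9 and Ccl3, for Ccl2, Ccl7 and Ccl12, and for Cxcl2 and Cxcl3, a known receptor gene (Ccr1, Ccr2 or Cxcr2) was at 8.54 FPKM or more in every library. For Ccl24, Ccl25, Cxcl10, Cxcl16 and Cx3cl1 the known receptor gene (Ccr3, Ccr9, Cxcr3, Cxcr6 or Cx3cr1) was under 1 FPKM in every library, with Cx3cr1 at 0.193 to 0.390 FPKM. For Cxcr4 the receptor gene was abundant and its ligand gene Cxcl12 was at most 0.0352 FPKM. RNA levels do not measure the proteins.

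Of 54 genes listed for chemokine receptor signalling and cell migration, 53 were found and 52 reached 1 FPKM. With 4-OHT 1 was higher and 0 were lower in control cells, and 0 were higher and 1 lower in Meis1f/f cells, against the shares of all genes given above (1.37% and 0.879%, 1.63% and 2.28%). Arrb1, which encodes a beta-arrestin that uncouples receptors, was at 12.2, 27.8, 17.2 and 19.5 FPKM, highest in control cells with 4-OHT. Rgs1, which encodes a regulator that shortens G protein signals, was at 3.11, 1.73, 21.9 and 8.36 FPKM, higher in both Meis1f/f libraries and lower with 4-OHT in both genotypes. Between genotypes 5 of the 52 were higher and 1 lower under vehicle, against 5.84% and 2.11% of all genes. Under 4-OHT 3 were higher and 0 lower, against 3.72% and 1.61%. The medians of the list were 0.13 and 0.08, and those of all genes -0.06 and 0.00. Tiam1, an activator of Rac, was at 3.48, 3.17, 17.9 and 12.8 FPKM, and Rgs18, another G protein regulator of blood cells, at 11.1, 9.001, 20.2 and 21.8 FPKM. The integrin alpha L gene Itgal was at 21.9, 24.0, 49.4 and 25.9 FPKM and the integrin activator gene Tln1 at 29.2, 54.5, 85.5 and 60.9 FPKM. The kinase gene Fgr was at 1.71, 4.14, 5.96 and 6.69 FPKM. Plcb3, a phospholipase C, was at 7.03, 5.31, 2.36 and 4.64 FPKM, the one listed gene lower in Meis1f/f cells under vehicle.

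The list of chemokine and chemoattractant receptor genes under other symbols held 17 symbols, some of them alternative names of another listed gene or of a member. Of these symbols 10 were found and 7 reached 1 FPKM. By the size rule 0 differed with 4-OHT in either genotype, 1 was higher in Meis1f/f cells under vehicle, and 2 were higher and 1 lower under 4-OHT. Over all genes 5.84% were higher under vehicle, and 3.72% were higher and 1.61% lower under 4-OHT. Fpr1, a receptor for bacterial formyl peptides on neutrophils and monocytes, was at 1.04, 1.91, 6.85 and 11.7 FPKM, high in both Meis1f/f libraries. Fpr2, its neighbour, was at 2.69, 1.45, 4.43 and 5.72 FPKM. Pf4, which encodes the platelet chemokine CXCL4, was at 21.5, 18.4, 12.3 and 8.28 FPKM, lower in both Meis1f/f libraries and by -1.07 (log2) under 4-OHT. The complement C5a receptor gene C5ar1 was at 10.3, 10.1, 17.6 and 10.7 FPKM, and Ltb4r1, a leukotriene B4 receptor gene, at 14.1, 22.2, 24.8 and 22.8 FPKM.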

How the data were processed

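RNA was measured in 4 libraries, 1 per group, each assigned by its title. The submitters' processing notes list Bowtie as a tool and mm8 as a build. No source used here gives the quantifier, versions, annotation or strandedness. The FPKM values were computed by the authors per transcript, and the coverage column, a signal of read depth per base not scaled between libraries, was also deposited, per the file headers. Tables held 28107 rows. Deposited loci count from 0 (in 3284 rows the span equalled the length, in 0 it was 1 base shorter), so 1 was added to starts; whether they follow mm8 was not settled.

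Rows marked OK in all libraries were used (394 were not), and the row with the highest mean represented a symbol. Differences are of log2(FPKM + 1), over 10922 genes at 1 FPKM or more in a library, called at 1 or more in size; this understates low genes. Coverage times length of single-row genes over 500 bases peaked at 40 to 50 bases in every library; the median between 30 and 60 bases (44.3 to 45.2) was taken as 1 read. Reads and intervals rest on this estimate, and PCR copies are not independent molecules. Python 3.11.15, pandas 2.3.3, numpy 2.4.6 and scipy 1.17.1 were used. The size rule and intervals were tried on simulated data that held counting error only, with no variation between cultures or lanes. Changes were simulated only in genes averaging 5 FPKM or more, so this trial does not cover low genes. Members that reached 1 FPKM were described, except 1 that is counted but not reported here, and listed genes were named if past the size rule in any comparison or among the 4 greatest differences of effects. Words of 45 bases were compared over GENCODE M21 transcripts. Members, lists and alternatives were chosen with earlier results of these data known.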

Additional observations from a re-analysis of the deposited data

Results flagged for a closer look

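With 1 library per group the following differences between genotypes were not tested. For 3 members the 4-OHT effect had opposite signs in control and Meis1f/f cells and the effects differed by at least 1 (log2). The difference of the effects was 2.49 for Ccl24, whose level with vehicle and with 4-OHT was 10.4 and 2.11 FPKM in control cells and 44.3 and 68.1 FPKM in Meis1f/f cells. It was 1.81 for Ccl12, at 1.38, 0.245, 0.216 and 1.23 FPKM in the same order, and 1.19 for Cxcl16, at 1.08, 0.609, 2.10 and 4.48 FPKM. Erythroid markers, which summed to 98.3, 31.9, 262 and 302 FPKM over 6 genes, had the same order over the 4 libraries as Ccl24 and Cxcl16. Epor of that list (0.240, 0.343, 3.78 and 1.88 FPKM) did not follow it. The stromal or endothelial sum (29.3, 20.1, 35.1 and 35.2 FPKM) had the same order too. The part of these lists in the differences was not tested.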

How the results depend on the processing

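The 8 alternatives changed the pseudocount (0.1 or 5), the floor (none or 5 FPKM), the scaling (median ratio or upper quartile), the rows used (summed) or the length trend (removed). No paired analysis was possible because each group had 1 library. No member past the size rule changed sign under any of the 8. Members higher in Meis1f/f cells under vehicle numbered 7 (as reported 6) with a pseudocount of 0.1 and 4 with 5. Under 4-OHT they numbered 10 (7) and 5, and 6 with the length trend removed. Over all genes, pseudocounts of 0.1 and 5 gave 1052 and 237 (638) under vehicle and 646 and 150 (406) under 4-OHT. Removing the length trend gave 396 under 4-OHT. Smaller changes of other counts are left out below. Ccl6, Ccl3, Ccl24 and Cxcr2 were past 1 in both genotype comparisons under all 8, a count whose alternatives were added after the data were seen, as were those of the gene lists. With a pseudocount of 0.1, 3 members (as reported 1) were lower with 4-OHT in control cells, for Meis1f/f cells 4 (2) were higher, and 2 (0) were lower in Meis1f/f cells under vehicle. Over all 10922 genes these calls rose as well, to 203 (96), 423 (178) and 398 (230). With a pseudocount of 5, for 4-OHT in Meis1f/f cells 1 member (2) was higher and 1 (2) lower, while the effects' difference had 2 (4) higher and 1 (2) lower. Over all genes these calls fell to 38 (178) and 72 (249), and to 53 (231) and 109 (396). With a floor of 5 FPKM, which removes Cxcl2, Ccl12 and Cxcl16, for Meis1f/f cells 1 (2) was lower with 4-OHT, while the effects' difference again had 2 (4) higher and 1 (2) lower. Over the 8290 genes left, 166 (249) were lower, and the effects' difference had 160 (231) higher and 242 (396) lower. Members higher in Meis1f/f cells were 5 (6) under vehicle and 6 (7) under 4-OHT, and all genes 435 (638) and 262 (406). Of the signalling list, with a pseudocount of 0.1 2 genes (1) differed with 4-OHT in control cells, 2 (1) in Meis1f/f cells and 5 (3) in the difference of the effects; with a pseudocount of 5 these were 0 in control cells and 1 in the difference, and 1 (3) differed between genotypes under 4-OHT. Median ratio rescaling gave 2 (1) for 4-OHT in Meis1f/f cells, and summed rows gave 5 (3) in the difference of the effects. Over all genes the former gave 113 (178) higher and 362 (249) lower, and the latter 171 (231) and 355 (396). Of the genes under other symbols, a pseudocount of 0.1 gave 1 (0) in the difference of the effects and 2 (1) between genotypes under vehicle, and a pseudocount of 5 gave 0 (1) under vehicle and 1 (3) under 4-OHT. In every comparison the higher and the lower calls over all genes also rose with a pseudocount of 0.1 and fell with 5. The share of higher calls over all genes in the difference of the effects was 36.8% as deposited and 26.7% under median ratio rescaling. Precision is limited most for Ccl12, where 1 library held an estimated 2.9 reads.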
